A study of Mus musculus with 6 samples.

Results

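The Polycomb complexes are described here through 9 genes, taken by name from the 29199 genes of the deposited table of estimated counts. Of these, 5 encode subunits or partners of Polycomb repressive complex 2 (PRC2), namely Ezh1, Ezh2, Eed, Suz12 and Jarid2, and 4 encode subunits of Polycomb repressive complex 1 (PRC1), namely Cbx7, Bmi1, Ring1 and Rnf2. The rule that picks them uses names and no expression value, though earlier results of these data were known when they were chosen. All 9 were among the 18321 genes that passed the filter on low counts and were tested.

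Total RNA of regulatory T cells (Treg) recovered from spleen was sequenced in 6 libraries. In every library the Treg were wild-type (WT), came from B6 Foxp3-Thy1.1 mice, in which the Thy1.1 marker reports Foxp3, and had been expanded ex vivo with anti-CD3/CD28 beads, IL-2 and TGFb. They had been injected, with naive CD4+ conventional T cells (Tconv), into irradiated hosts (C57BL/6 J or CD45.1+ B6, by the study's methods) that received a mixture of B6 and semi-allogeneic B6D2F1 bone marrow. In 3 libraries the co-injected Tconv were Hp1a+/+ (Treg with WT Tconv), and in 3 they were Hp1a-/- (Treg with HP1α KO Tconv). The Tconv donors were littermates on a mixed 129/Sv and C57BL/6 background, and the floxed Hp1a allele had been excised by CMV-cre, which acts in all tissues. HP1α is a protein of heterochromatin, encoded by Cbx5. By the labels the Treg themselves were WT in both groups, and what set the groups apart was the genotype of other cells in the same host. Treg were sorted 3 weeks after the graft as CD4+ Thy1.1+ cells that carried CD45.2 and H-2Kb and lacked CD45.1 and H-2Kd. The labels do not say whether replicates of a group came from separate hosts, so the p-values measure the spread between these libraries, which may in part be technical.

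PRC2 methylates lysine 27 of histone H3 through its catalytic subunit EZH1 or EZH2, which is active when held with EED and SUZ12. PRC1 ubiquitinates histone H2A through RING1 or RNF2 (RING1B), and CBX subunits of canonical PRC1 bind the H3K27 trimethyl mark that PRC2 leaves. Both complexes keep lineage and developmental genes silent, and in activated Treg EZH2 is known as necessary for keeping Foxp3-dependent gene expression.

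Library totals ran from 87421755 to 119078882 counts, and the 9 genes were covered by 1627 to 19810 counts each per library. All 6 Treg markers were detected, and Foxp3 stood at 210.4 ± 10.9 CPM (counts scaled to a TMM-adjusted total of 1e+06 per library, SD, n = 3) with WT Tconv and 211 ± 51.1 CPM (n = 3) with HP1α KO Tconv. The HP1α KO libraries held 228, 154 and 252 CPM of Foxp3, replicate 2 being the lowest, and its log2 fold change of 0.005 ran from -0.14 to 0.19 with a library left out, the latter without that replicate. All of the other 5 Treg markers had log2 fold changes below 0, and 1 of them, Ctla4, named after its values were seen, had groups that did not overlap (-0.38, adjusted p 0.232 in edgeR and 0.0414 in DESeq2). Cbx5 was present in both groups, at 135 ± 18.4 and 120.1 ± 12 CPM (n = 3 each). A pair of libraries stood apart. Replicate 3 with WT Tconv had a summed level of 6 red cell markers of 5501 CPM, against 370.2 to 687.7 CPM in the other libraries, and of 4 neutrophil markers of 1206 CPM, against 29.81 to 151.8 CPM. Its summed macrophage markers, at 175.7 CPM against 12.27 to 46.56 CPM, and plasma cell markers, at 12.01 CPM against 0.7504 to 3.546 CPM, were highest too. The 4 macrophage markers had log2 fold changes from -1.19 to -0.003, with a median of -0.11, so their sum does not stand for all 4 alike. Of the other lists, summed B cell markers (14.08 to 22.46 CPM), CD8 (5.825 to 8.854 CPM) and NK markers (7.971 to 11.93 CPM) overlapped between groups. By gene, 3 of 4 B cell, 1 of 2 CD8 and 3 of 3 NK markers had log2 fold changes below 0. Of these, 0 had an unadjusted edgeR p under 0.05. Dendritic cell markers summed lower in every HP1α KO library, at 0.5065 to 0.8236 CPM against 1.176 to 1.298 CPM. Only 1 of these 4 markers passed the filter, and 11.6% of all genes had groups apart on that side. Replicate 3 with WT Tconv also lay apart on the first principal component, which held 55.4% of the variance. Replicate 2 with HP1α KO Tconv had 0.972% of its counts in mitochondrial genes, against 2.52% to 2.88% in the others. Values of named genes that moved by over 1.5 times without either library are given with and without it.

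No Polycomb gene of the 9 passed the test across all genes. By the quasi-likelihood test of edgeR with Benjamini-Hochberg adjustment over all genes tested, 0 of the 9 had an adjusted p under 0.05, as had 0 of the 18321 genes (0%). DESeq2 called 1 of the 9, Eed, lower with HP1α KO Tconv, where it called 4.35% of the 12097 genes to which it gave an adjusted p, 3.03% as lower. Log2 fold changes (HP1α KO over WT Tconv throughout) were below 0 for 6 genes, all PRC2 genes but Ezh1 plus Bmi1 and Rnf2, and above 0 for Ezh1, Cbx7 and Ring1. None had a log2 fold change beyond 1 in either direction, and the median over the 9 was -0.16, beside -0.01 over all genes tested. An unadjusted p under 0.05 was found for 3 of the 9, Eed, Jarid2 and Rnf2, all on the lower side, where 7.52% of all genes had such a p on that side and 6.98% on the higher side. The 3 libraries of one group did not overlap with those of the other for 4 of the 9 (44.4%), as for 23.0% of all genes tested. Of these 4, 3 were lower and 1 was higher with HP1α KO Tconv, beside 11.6% and 11.5% of all genes.

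**Figure D1:**
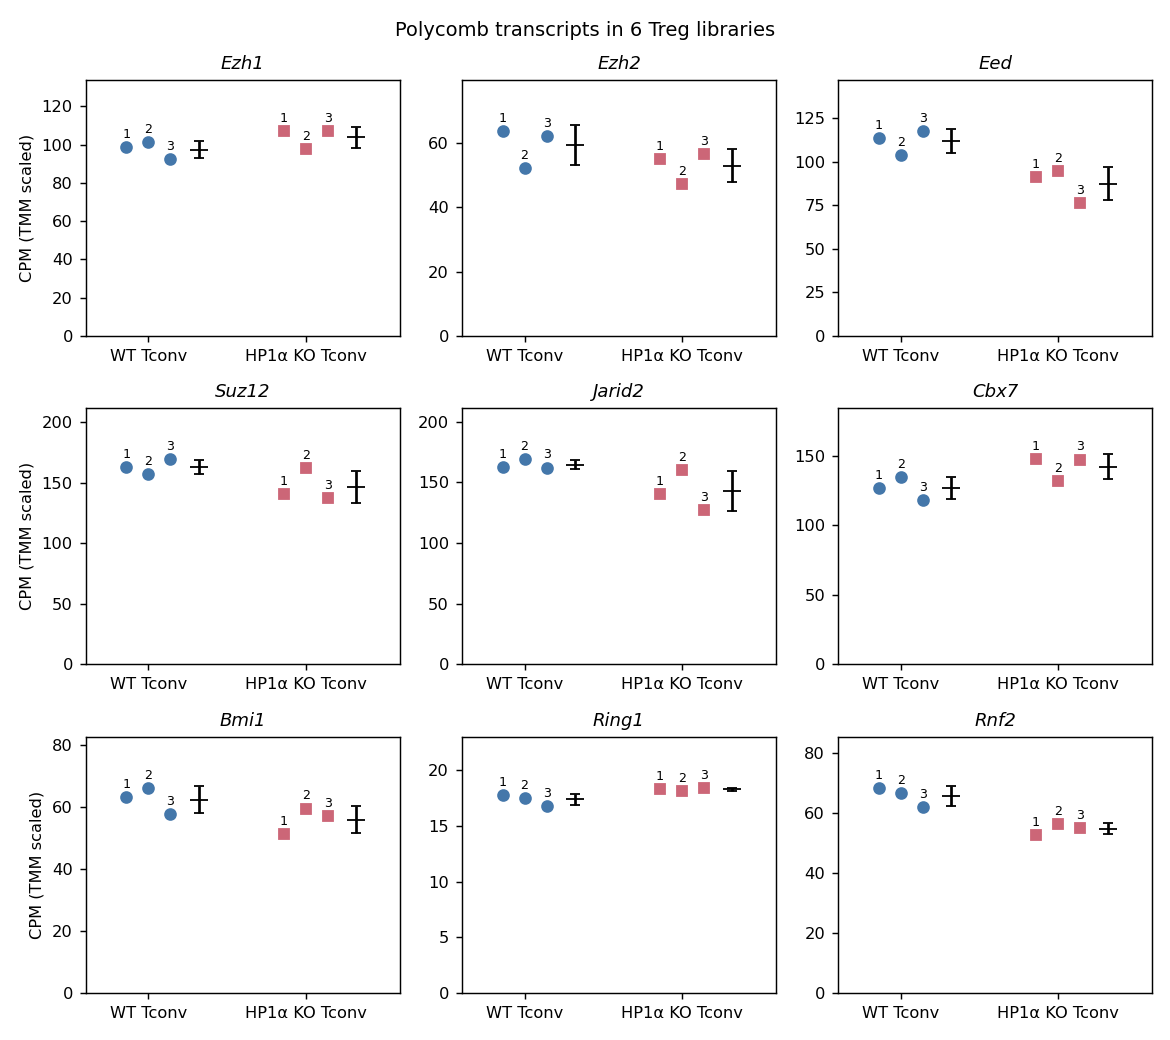
Level of each Polycomb gene in CPM on TMM-scaled library totals (vertical axes, from 0), by library, with the replicate number above each point. Circles are Treg with WT Tconv, squares Treg with HP1α KO Tconv, and the bar beside each group is its mean ± SD (n = 3). The groups do not overlap for Eed, Jarid2 and Rnf2, which are lower with HP1α KO Tconv, and for Ring1, which is higher.

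Ezh1 and Ezh2 are the alternative catalytic subunits of PRC2, EZH2 being typical of dividing cells and EZH1 of resting ones. Ezh1 (ENSMUSG00000006920, GRCm39 chr11:101081934-101117315, minus strand) was read at 98.6, 101 and 92.5 CPM in replicates 1 to 3 with WT Tconv and at 107, 97.5 and 107 CPM with HP1α KO Tconv. Replicate 2 of the HP1α KO side fell within the WT range, so the groups overlapped. Its log2 fold change was 0.09 (SE 0.0702, 95% interval -0.07 to 0.25), and the adjusted p in edgeR was 0.586. It ran from 0.06, without replicate 3 with WT Tconv, to 0.14 when each library was left out in turn.

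Ezh2 (ENSMUSG00000029687, chr6:47507073-47572331, minus strand) was lower than Ezh1 per kilobase in every library, at 0.612 to 0.851 times its level on the union of exons and 0.714 to 0.992 times on the longest transcript. With WT Tconv it stood at 63.6, 52.1 and 62.0 CPM, and with HP1α KO Tconv at 55.0, 47.1 and 56.5 CPM. Replicate 2 was the lowest library of each group, and the ranges overlapped. The means were 59.3 ± 6.23 and 52.9 ± 5.07 CPM (SD, n = 3 each), a log2 fold change of -0.17 (SE 0.103, 95% interval -0.40 to 0.07, edgeR adjusted p 0.507). The interval spanned 0, so a difference in Ezh2 was not resolved in these libraries, and values down to -0.40 were within it. It was -0.09 without replicate 2 with HP1α KO Tconv and -0.10 without replicate 1 with WT Tconv, and ran to -0.24 with the other libraries left out in turn.

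The ratio of Ezh2 to Ezh1 counts within a library needs no scaling between libraries. It was 0.646, 0.515 and 0.671 with WT Tconv and 0.514, 0.483 and 0.528 with HP1α KO Tconv. Replicate 2 with WT Tconv lay inside the HP1α KO range. The log2 ratio averaged -0.72 ± 0.21 and -0.98 ± 0.066 (SD, n = 3 each), and the exact two-sided permutation test of the difference of -0.26 gave p = 0.2, where 3 libraries against 3 cannot give less than 0.1.

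Eed, the subunit that binds trimethylated H3K27 and stimulates the enzyme, had the largest difference of the 9. Its levels were 114, 104 and 118 CPM with WT Tconv, and 91.2, 94.7 and 76.4 CPM with HP1α KO Tconv. Every HP1α KO library lay under every WT library. Group means were 112 ± 7.03 and 87.4 ± 9.70 CPM (SD, n = 3 each), so the level with HP1α KO Tconv was 0.783 times that with WT Tconv. The log2 fold change was -0.35 (SE 0.0945, 95% interval -0.57 to -0.14), with an unadjusted p of 0.0054 and an adjusted p of 0.209 in edgeR and an adjusted p of 0.0392 in DESeq2. It was -0.32 without replicate 3 with WT Tconv and -0.41 without replicate 2 with HP1α KO Tconv. DESeq2 called Eed in all 6 libraries and without the latter library (adjusted p 0.00301), and not when any other library was left out.

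Eed (ENSMUSG00000030619) lies at chr7:89603862-89630217 on the minus strand. The 200 bases from 250 to 51 before its RefSeq start (build GRCm38.p6, chr7:89981027-89981226, minus strand) are shown as the upstream sequence of the gene with the largest difference, and those of Ezh1 (GRCm38.p6, chr11:101226514-101226713, minus strand), whose difference had the opposite sign, stand beside them, both in lower case throughout.
Eed: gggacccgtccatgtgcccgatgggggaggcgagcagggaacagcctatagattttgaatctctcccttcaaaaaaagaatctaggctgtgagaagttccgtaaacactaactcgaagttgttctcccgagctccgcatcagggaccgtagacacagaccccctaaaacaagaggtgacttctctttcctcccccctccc
Ezh1: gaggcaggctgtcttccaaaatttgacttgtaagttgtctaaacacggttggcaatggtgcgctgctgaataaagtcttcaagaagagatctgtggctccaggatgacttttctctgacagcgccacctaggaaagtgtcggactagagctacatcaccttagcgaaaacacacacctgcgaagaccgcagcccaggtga
These stretches held 8 and 7 CpG sites. Over the full 250 bases before the start, Eed with 12 and Ezh1 with 14 had the fewest CpG sites of the 9 genes, the others having 20 to 37, while the median over 32851 mouse promoters of that length was 6.

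Suz12, the scaffold that holds PRC2 together (ENSMUSG00000017548, chr11:79883891-79925421, plus strand), was read at 163, 157 and 169 CPM with WT Tconv and 140.4, 162 and 138 CPM with HP1α KO Tconv. Replicate 2 of the HP1α KO side lay inside the WT range and the other 2 HP1α KO libraries lay under it. Between groups the log2 fold change was -0.15 (SE 0.0793, 95% interval -0.34 to 0.03, edgeR adjusted p 0.427). Without that replicate it was -0.23, with an unadjusted p of 0.00446 and an adjusted p of 0.157 in edgeR and an adjusted p of 0.00579 in DESeq2.

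E2F factors, which drive genes of the cell cycle, are known to act on genes of PRC2, and an E2F-type motif was looked for in the 250 bases before each start. The letters searched on both strands were TTTCCCGC, TTTCGCGC, TTTGCCGC and TTTGGCGC, which can overlap one another on opposite strands. Among the 10 RefSeq starts of the 9 genes (Jarid2 has 2) only that of Suz12 held a match, a single one, with its first base at position -219, and 1.86% of all promoters of the same length held one. The 30 bases around it (GRCm38.p6, chr11:79992876-79992905, plus strand) carry the motif in capitals.
Suz12: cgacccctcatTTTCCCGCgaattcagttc
The match describes these letters and is not a measured binding site.

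Jarid2 encodes a partner of PRC2 that helps bring the complex to chromatin and has its own DNA binding region. It lies at chr13:44882950-45075119 on the plus strand (ENSMUSG00000038518). The WT libraries were close together, at 163, 169 and 162 CPM, and the HP1α KO libraries were spread, at 141, 160.0 and 127 CPM. All HP1α KO values lay under the WT values, replicate 2 by a narrow gap. This gave a log2 fold change of -0.21 (SE 0.0882, 95% interval -0.41 to -0.01), with an unadjusted p of 0.0452 and an adjusted p of 0.333 in edgeR. It was -0.22 without replicate 3 with WT Tconv, and -0.30 without replicate 2 with HP1α KO Tconv (DESeq2 adjusted p 0.00138). Without replicate 3 with HP1α KO Tconv it was -0.13, with an unadjusted p of 0.149 and an adjusted p of 0.607 in edgeR.

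In PRC1, Rnf2 and Ring1 encode the alternative E3 ubiquitin ligases, and Bmi1 (PCGF4) is the partner that supports their activity. Rnf2 (ENSMUSG00000026484, chr1:151333755-151376729, minus strand) was read at 68.5, 66.7 and 62.0 CPM with WT Tconv and 52.8, 56.4 and 55.2 CPM with HP1α KO Tconv. The groups did not overlap, and within each the libraries were close. Means were 65.7 ± 3.34 and 54.8 ± 1.85 CPM (SD, n = 3 each), for a log2 fold change of -0.26 (SE 0.0683, 95% interval -0.42 to -0.11). The unadjusted p of 0.0046 was the smallest of the 9, and the adjusted p was 0.209 in edgeR and 0.0668 in DESeq2. Leaving out each library in turn gave -0.30 to -0.22, with -0.30 without replicate 3 with WT Tconv. Without replicate 2 with HP1α KO Tconv the value was -0.28 in edgeR, and DESeq2 gave an adjusted p of 0.00411.

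Ring1 (ENSMUSG00000024325, chr17:34239766-34243654, minus strand) had the fewest counts of the 9. Its levels were 17.8, 17.5 and 16.8 CPM with WT Tconv and 18.4, 18.1 and 18.4 CPM with HP1α KO Tconv. The groups did not overlap, yet the distance between them was small, with a log2 fold change of 0.07 (SE 0.0766, 95% interval -0.10 to 0.25, edgeR adjusted p 0.688). The estimate was above 0 where that of Rnf2 was below it, but its interval spanned 0.

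The ratio of one ligase to the other was also read within libraries. Rnf2 over Ring1 counts was 3.84, 3.81 and 3.68 in the WT libraries and 2.87, 3.11 and 2.99 in the HP1α KO libraries. The groups did not overlap, and each was narrow. The log2 ratio averaged 1.92 ± 0.032 and 1.58 ± 0.057 (SD, n = 3 each), and its difference of -0.34 gave an exact two-sided permutation p of 0.1, the smallest that 3 against 3 allows, or 0.2 after Benjamini-Hochberg adjustment over both ratios. The transcripts of Rnf2 and Ring1 are the lowest and the highest of the 9 in GC content, 41.5% and 56.9%, and with the offset for GC content described further on their log2 fold changes were -0.17 and 0.03, closer together than without it. Per kilobase of exon, Rnf2 stood 2.67 to 2.79 times above Ring1 with WT Tconv and 2.08 to 2.25 times with HP1α KO Tconv.

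Bmi1 (ENSMUSG00000026739, chr2:18681292-18691441, plus strand) was read at 63.1, 66.2 and 57.6 CPM with WT Tconv and 51.1, 59.5 and 57.1 CPM with HP1α KO Tconv. Replicate 2 of the HP1α KO side lay above the lowest WT library, replicate 3. Bmi1 had a log2 fold change of -0.16 (SE 0.0843, 95% interval -0.35 to 0.04, edgeR adjusted p 0.444), and -0.21 without replicate 3 with WT Tconv. It was -0.08 without replicate 1 with HP1α KO Tconv and -0.10 without replicate 2 with WT Tconv. A processed pseudogene, Gm5946, matches 971 bases of Bmi1 at 96.4% identity and had 0 to 9 counts per library. The later annotation used here also holds a long noncoding RNA of that name (ENSMUSG00000121627) that matches 2658 bases, 70.2% of the longest Bmi1 transcript, at 97.0% identity and has no row in the table, and its part in the level of Bmi1 was not tested.

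Cbx7, the chromodomain subunit of canonical PRC1 that reads trimethylated H3K27 (ENSMUSG00000053411, chr15:79800001-79855320, minus strand), was read at 127, 135 and 118 CPM with WT Tconv and 147, 132 and 147 CPM with HP1α KO Tconv. Replicate 2 of the HP1α KO group lay inside the WT range, and the other 2 libraries of that group lay above it. The log2 fold change of 0.16 (SE 0.0774, 95% interval -0.01 to 0.34) was the largest on the higher side and had an edgeR adjusted p of 0.382. It was 0.12 without replicate 3 with WT Tconv and 0.22 without replicate 2 with HP1α KO Tconv, where DESeq2 gave an adjusted p of 0.0483.

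**Figure D2:**
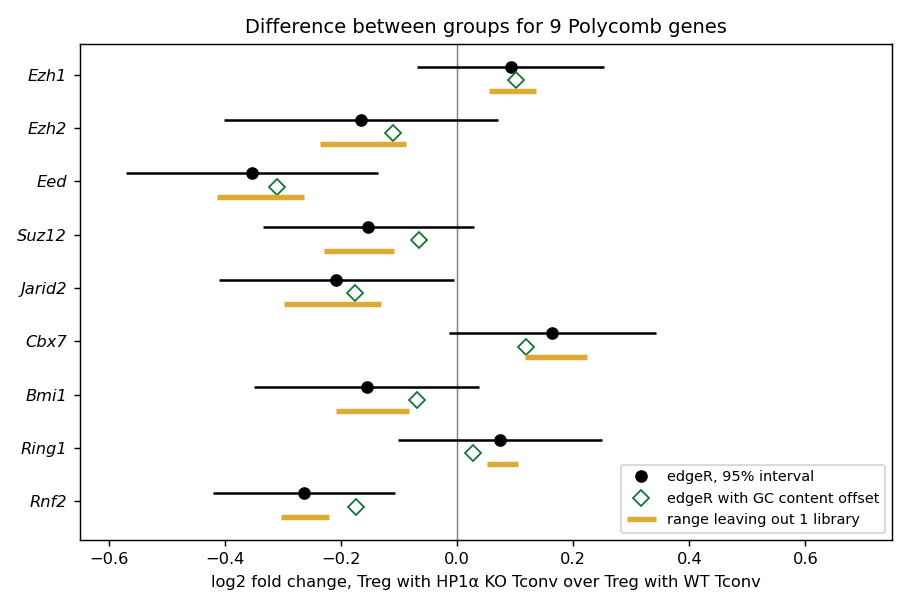
Log2 fold change of each Polycomb gene, HP1α KO over WT Tconv (horizontal axis). Filled circles with lines are the edgeR estimate and its 95% interval, diamonds the estimate with an offset for GC content, and thick bars the range when each of the 6 libraries is left out in turn. The intervals of Eed, Jarid2 and Rnf2 lie under 0, that of Jarid2 only just, and no estimate changes sign.

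Replicate 2 with HP1α KO Tconv, the library with the low mitochondrial share, was thus the HP1α KO library nearest to the WT group for Ezh1, Eed, Suz12, Jarid2, Cbx7, Bmi1, Ring1 and Rnf2, and the farthest from it for Ezh2. Without it, DESeq2 called 5 of the 9, namely Eed, Suz12, Jarid2 and Rnf2 as lower and Cbx7 as higher, where it called 11.3% of the 12548 genes that had an adjusted p. In the same libraries edgeR called 0 of the 9, the smallest adjusted p being 0.147, and with any other single library left out DESeq2 called 0 of the 9. The part of the mitochondrial share in these values was not tested.

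The order of the genes by abundance was read per kilobase, since longer transcripts yield more fragments. On the union of annotated exons and averaged over the 6 libraries, Eed was highest at 25.8 CPM per kilobase, followed by Suz12 at 20.5, Cbx7 at 20.5, Jarid2 at 14.3, Bmi1 at 13.0, Rnf2 at 12.9, Ezh1 at 10.9, Ezh2 at 7.68 and Ring1 at 5.28. The ranges over libraries were apart between Cbx7 and Jarid2, between Ezh1 and Ezh2 and between Ezh2 and Ring1, and overlapped for every other pair of neighbours in that order. By group means, Suz12 stood above Cbx7 with WT Tconv (21.62 and 19.29) and below it with HP1α KO Tconv (19.45 and 21.62). Rnf2 stood above Bmi1 with WT Tconv (14.11 and 13.74) and below it with HP1α KO Tconv (11.76 and 12.33). In replicate 3 with HP1α KO Tconv, Cbx7 (22.41) lay above Eed (19.82). On the longest transcript, Eed (47.6 CPM per kilobase), Suz12 (31.7) and Cbx7 (22.2) stayed in front and Ring1 (7.00) last, whereas Ezh1, at 21.3, came before Jarid2, Ezh2, Rnf2 and Bmi1, which lay between 18.4 and 15.6. The places of the lowest and the highest genes did not depend on the length taken, and those of the middle genes did.

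**Figure D3:**
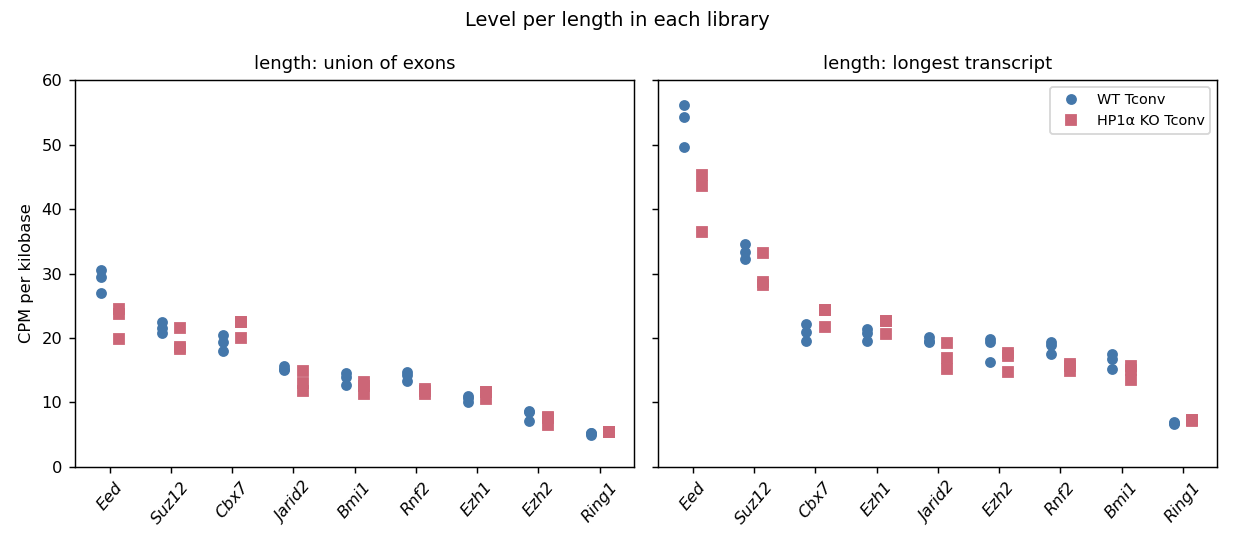
Level in CPM per kilobase (vertical axis) of the 9 Polycomb genes in each library, with the length taken as the union of exons (left) or the longest transcript (right), and genes ordered from high to low mean. Circles are Treg with WT Tconv and squares Treg with HP1α KO Tconv, 3 libraries each. By the mean over libraries Eed is highest and Ring1 lowest on both lengths, at 25.8 and 5.28 CPM per kilobase on the first. On the union of exons Cbx7 lies above Eed in replicate 3 with HP1α KO Tconv.

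Across the 6 libraries the genes fell into patterns that ran across the complexes. The levels of Suz12, Jarid2 and Eed went together, with Pearson correlations of log2 CPM of 0.896 for Suz12 with Jarid2, 0.877 for Eed with Suz12 and 0.874 for Eed with Jarid2. Ezh1 went with Cbx7 (0.981) and against Suz12 (-0.958), and Bmi1 went with Rnf2 (0.857). Ezh2 was the exception, its largest correlation with another of the 9 being 0.434, with Eed. These values describe 6 libraries that share the group difference, the GC content gradient described next and the scaling, and carry no p.

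Among the 13249 tested genes whose mean count was 100 or more, those most like Ezh1 over the 6 libraries were Tspyl3 (Pearson correlation 0.999), Ap1s1 (0.995) and Kctd2 (0.994). Nearest to Ezh2 were Gm43581 (0.991), Txn1, the gene of thioredoxin (0.975), and Rpia, an enzyme of the pentose phosphate pathway (0.973). With 6 libraries and so many genes, values of this size are the top of a long list and describe these libraries only.

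Over all genes the median fold change went with the GC content of the transcript. With the genes tested cut into 5 equal classes from low to high GC content, the median log2 fold change was -0.094, -0.045, -0.003, 0.037 and 0.071. The 6 Polycomb genes with values below 0 had a GC content of 41.5% to 48.8%, and the 3 with values above 0 had 50.6% to 56.9%. Within the 6, Eed and Jarid2, at 47.9% and 48.8%, had larger differences than Suz12 and Bmi1, at 41.9% and 41.8%. Rnf2, which had the lowest GC content at 41.5%, had a larger difference than any of the 6 but Eed. With an offset for GC content fitted in each library, chosen after the data had been seen, every one of the 9 kept its direction. Suz12 and Bmi1 moved to -0.07 each, Rnf2 to -0.17, Ezh2 to -0.11 and Jarid2 to -0.18. Eed stood at -0.31 and Ezh1 at 0.10, close to their values without the offset, and Cbx7 and Ring1 at 0.12 and 0.03. With it, neither edgeR nor DESeq2 called any of the 9, Eed having adjusted p-values of 0.355 and 0.128, where DESeq2 called 1.95% of 12432 genes.

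**Figure D4:**
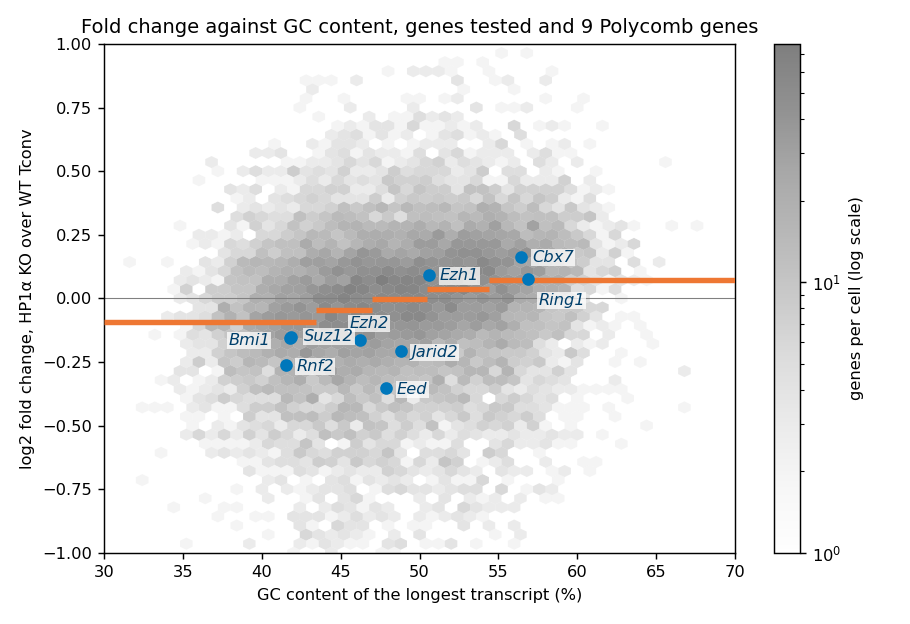
Log2 fold change, HP1α KO over WT Tconv (vertical axis), against the GC content of the longest transcript in percent (horizontal axis). Grey cells count the genes tested on a log scale within a log2 fold change of 1 in either direction, horizontal bars are the medians of 5 equal classes of genes by GC content, and points are the 9 Polycomb genes. The medians go from -0.094 to 0.071, and Suz12 and Bmi1 nearly coincide.

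The wider Polycomb system was taken as 48 further genes, of which 46 were tested, Auts2 being too low and Asxl3 having no row. By edgeR 0 of the 46 passed, and DESeq2 called 2, Aebp2 and Rybp, both lower, a share like the 4.35% it called over all genes. Of the 46, 31 had a log2 fold change below 0 (67.4%, where 51.5% of all genes tested were below 0), with a median of -0.05. An unadjusted p under 0.05 was found for 5 on the lower and 2 on the higher side, and groups did not overlap for 7 and 3. Both counts stood near the shares over all genes, 14.5% and 23.0% in either direction.

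Of the 9 other PRC2 genes 7 were below 0, and Aebp2 and Rbbp4 had the smallest p-values. Aebp2 encodes a DNA-binding partner found in the same form of PRC2 as JARID2, and it stood at 305, 294 and 297 CPM with WT Tconv and 244, 179 and 208 CPM with HP1α KO Tconv. The groups were well apart, and replicate 2 was the lowest HP1α KO library here, unlike in Jarid2. Its log2 fold change was -0.51 (95% interval -0.75 to -0.26), with an adjusted p of 0.209 in edgeR and 0.00195 in DESeq2, and it was -0.52 with the GC content offset (DESeq2 adjusted p 0.00297). Without replicate 2 with HP1α KO Tconv, DESeq2 gave -0.41 (adjusted p 0.000313), and without replicate 3 with WT Tconv -0.52 (adjusted p 0.0302). Rbbp4, a histone-binding subunit that PRC2 shares with other complexes, went from 285 ± 4.28 to 246 ± 5.57 CPM (n = 3 each), for a log2 fold change of -0.21 (edgeR adjusted p 0.220). Phf19, whose product reads methylated H3K36, stood at 6.16 ± 1.01 and 7.61 ± 0.368 CPM (n = 3 each), a log2 fold change of 0.30 (edgeR adjusted p 0.386).

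In the variant PRC1 complexes, which lack a CBX subunit, RYBP takes the place of CBX and stimulates the ligase. Rybp was read at 48.4, 49.6 and 60.0 CPM with WT Tconv and 39.1, 36.3 and 32.7 CPM with HP1α KO Tconv. All HP1α KO libraries lay under all WT libraries, and replicate 3 was the extreme of each group. The log2 fold change of -0.55 (95% interval -0.79 to -0.30) was the largest in the wider list and had an adjusted p of 0.209 in edgeR and 0.00125 in DESeq2. It was -0.44 without replicate 3 with WT Tconv, and -0.47 with the GC content offset (DESeq2 adjusted p 0.0104). DESeq2 called Rybp, and also Aebp2, whichever single library was left out. A processed pseudogene, Rybp-ps, is 99.2% identical over 526 bases and had 12 to 49 counts per library, against 2885 to 7019 for Rybp.

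Of 11 tested genes of variant PRC1, 8 were below 0 and 3 above it, the highest at 0.12. Fbrsl1, a paralogue of Auts2, stood at 45.5 ± 2.81 and 38.2 ± 2.65 CPM (n = 3 each, log2 fold change -0.25, edgeR adjusted p 0.241). Kdm2b, whose product brings a variant PRC1 to unmethylated CpG islands, stood at 267 ± 9.36 and 230.2 ± 29.2 CPM (log2 fold change -0.22, edgeR adjusted p 0.360 with n = 3 each), and its value was -0.11 without replicate 3 with HP1α KO Tconv. In both the groups did not overlap.

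Of the 5 other PCGF genes, which encode alternatives to BMI1, 3 were below 0. Pcgf1 had a log2 fold change of 0.30 (edgeR adjusted p 0.246) at 8.22 ± 0.428 and 10.1 ± 0.140 CPM (n = 3 each), and Pcgf5 had -0.11, which was -0.05 without replicate 3 with WT Tconv, -0.06, -0.21 and -0.04 without replicates 1, 2 and 3 with HP1α KO Tconv and -0.02 with the GC content offset. The Polyhomeotic genes, whose products link PRC1 complexes into larger assemblies, were tested with the SCM genes, and 4 of these 5 were below 0, Phc3 having a log2 fold change of -0.19 (edgeR adjusted p 0.256) and Phc2 one of 0.23 (edgeR adjusted p 0.292). Phc2 stood at 0.14 without replicate 2 with HP1α KO Tconv, and Phc3 at -0.12 with the GC content offset.

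Enzymes that reverse the Polycomb marks had no call in edgeR, or in DESeq2 with all 6 libraries. Bap1, the deubiquitinase that removes the PRC1 mark, had a log2 fold change of -0.13 (edgeR adjusted p 0.506), which was -0.06 without replicate 3 with HP1α KO Tconv, and 4 of 10 tested genes of its complex were below 0. Kdm6a and Kdm6b, the demethylases of H3K27, stood at 123 ± 3.41 and 111 ± 10.0 CPM and at 134 ± 16.4 and 115 ± 17.1 CPM (n = 3 each). Their log2 fold changes were -0.15 (edgeR adjusted p 0.424) and -0.22 (edgeR adjusted p 0.483). Kdm6a was called by DESeq2 without replicate 2 with HP1α KO Tconv (-0.23, adjusted p 0.0046), and stood at -0.06 with the GC content offset. Kdm6b stood at -0.13 without replicate 3 with WT Tconv and -0.11 without replicate 3 with HP1α KO Tconv.

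**Figure D5:**
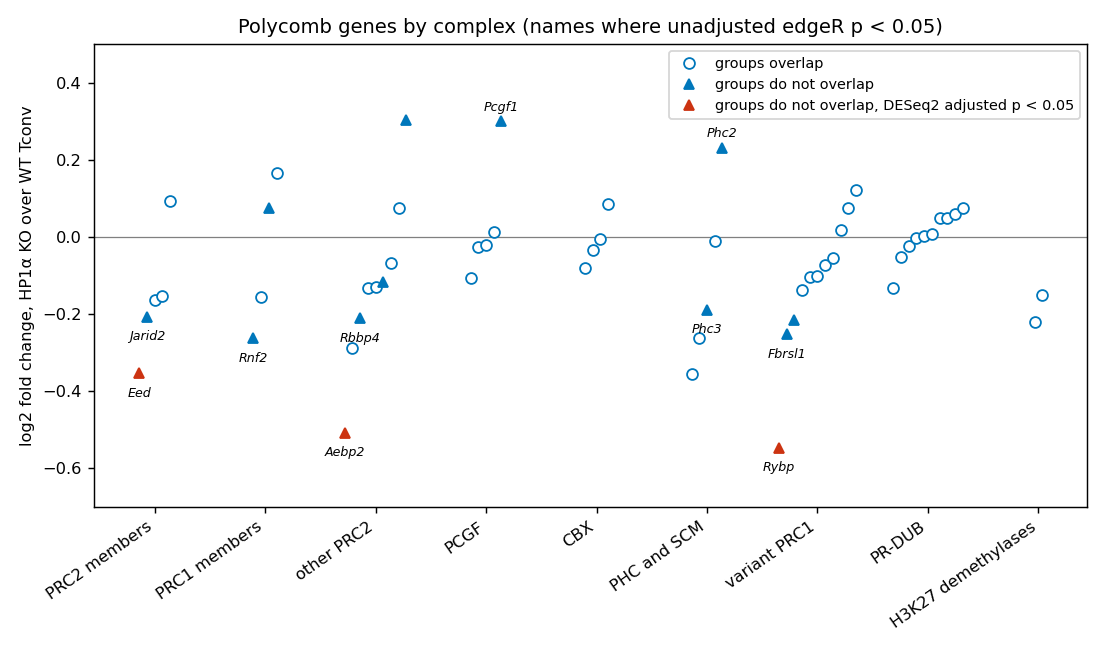
Log2 fold change, HP1α KO over WT Tconv (vertical axis), of the 9 Polycomb genes and 46 further tested genes, by complex. Circles are genes whose groups overlap, triangles genes whose groups do not, and red triangles those that DESeq2 also called. Names are given where the unadjusted edgeR p is under 0.05, and Eed, Aebp2 and Rybp are the red ones.

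Genes that Polycomb complexes keep silent in many tissues were looked at for their transcripts. Of 39 Hox genes, 26 had a row in the table and 3 passed the filter, Hoxb3, Hoxb4 and Hoxb13. The other 23 had at most 15 counts in any library, in totals of 87421755 counts or more. Hoxb4 was the one Hox gene with a level above 1 CPM, at 4.82, 5.26 and 6.30 CPM with WT Tconv and 6.24, 4.65 and 4.12 CPM with HP1α KO Tconv, with overlapping groups. Of 10 other developmental regulators, 7 had a row and Lhx2 passed the filter, at 12 to 26 counts.

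The Ink4 locus is a classical Polycomb target that opens with age and repeated division. Cdkn2a stood at 4.08, 3.90 and 3.39 CPM with WT Tconv and 4.37, 4.59 and 3.93 CPM with HP1α KO Tconv, with overlapping groups and a log2 fold change of 0.18 (edgeR adjusted p 0.603), or 0.11 without replicate 3 with WT Tconv and 0.10 with the GC content offset. Cdkn2b stood at 3.74 ± 0.293 and 3.22 ± 1.09 CPM (n = 3 each), with a log2 fold change of -0.21 (edgeR adjusted p 0.713), which was -0.14 without replicate 1 and went from -0.51 without replicate 2 to -0.02 without replicate 3 with HP1α KO Tconv. These counts (204 to 477 per library) were far under those of the Polycomb genes, and no difference was resolved.

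Genes of T helper lineages that are known to carry H3K27 methylation in T cells were taken as 6 genes, of which 0 passed in edgeR. Il10, the gene of an inhibitory cytokine, stood at 174, 205 and 174 CPM with WT Tconv and 143, 144 and 97.1 CPM with HP1α KO Tconv, with no overlap. Its log2 fold change was -0.52, with an adjusted p of 0.246 in edgeR and 0.0180 in DESeq2. DESeq2 called it when any one HP1α KO library was left out (adjusted p 0.00406 to 0.0411) and not when any one WT library was, nor with the GC content offset (-0.46, adjusted p 0.0826). Prdm1, which encodes Blimp-1, stood at 98.7 ± 4.60 and 85.3 ± 6.66 CPM (n = 3 each, log2 fold change -0.21, edgeR adjusted p 0.285). Gata3, the regulator of Th2 cells, had a log2 fold change of -0.16 (edgeR adjusted p 0.527), and -0.05 without replicate 2 with HP1α KO Tconv. Tbx21 and Eomes, regulators of Th1 and cytotoxic cells, had values of 0.05 and -0.06, which changed sign with the library left out and, for Tbx21, with the GC content offset.

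Since Ezh2 follows the cell cycle in many cells, proliferation genes were read beside it. Of 15 such genes, 12 had a log2 fold change below 0 and 3 above, 0 had an unadjusted p under 0.05, and the median was -0.04. Their summed level was 2918 CPM in replicate 3 with WT Tconv and 1929 to 2302 CPM in the other 5 libraries, and it was lowest in replicate 2 with WT Tconv, which was also the lowest WT library for Ezh2. Replicate 2 with HP1α KO Tconv was the lowest of all 6 libraries for Ezh2, at 47.1 CPM. Its summed proliferation level was 2176 CPM, beside 2179 and 2269 CPM in replicates 1 and 3 of that group. Replicate 3 with WT Tconv also had the most RNA of red cell and neutrophil markers, and Ezh2 there was 62.0 CPM, between the other WT libraries. In these bulk samples fewer cells with a transcript and less RNA of it per cell cannot be told apart, and the part of proliferation or of other cells in the values was not tested.

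Exons of 6 of the 9 genes overlap a gene on the opposite strand in the annotation, the largest overlap of each covering 1.3% to 12.0% of its exon bases. The largest shares were 12.0% for Jarid2, with Dtnbp1, 9.2% for Eed, with the long noncoding RNA E230029C05Rik, and 8.8% for Ezh1, with Cntnap1. The partners of Eed and Ezh1 had 147 to 292 and 164 to 292 counts per library, far below the counts of either gene. Dtnbp1 had 1985 to 2688 counts, against 11224 to 18999 for Jarid2. Partners with more counts than the gene itself were Cul1, with 10663 to 15423, over 1.3% of Ezh2 (4703 to 7263 counts), and Apobec3, with 15410 to 18183, over 3.1% of Cbx7 (12217 to 13857 counts). Trmt1l, over 3.8% of Rnf2, had 4478 to 5168 counts, in a range that overlapped the 4797 to 7259 of Rnf2. The libraries were made with a stranded kit, and whether strand was used in the counting is not given in the sources used here.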

How the data were processed

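Total RNA of sorted mouse Treg was sequenced by the authors from a stranded total RNA kit (3 libraries per group). Within the nf-core pipeline the authors mapped trimmed reads to GRCm39 (Ensembl annotation) by STAR and quantified genes by Salmon. What they deposited are estimated counts in whole numbers without normalization, so ambiguous reads were shared between overlapping or near-identical genes by a model. The 64 genes without a symbol took 0.0231% of the counts and stayed in the tests. Library totals and the counts behind each gene are given in the report, and replicate pairs differed by more than sampling noise (chi-square per degree of freedom 21.6 or more).

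Counts were tested with edgeR (version 4.0.16), by its quasi-likelihood test (glmQLFTest after a robust glmQLFit, TMM, filterByExpr, group as the sole term) in R version 4.3.3, with Benjamini-Hochberg adjustment over the 18321 genes tested and a threshold of 0.05. Alternatives were DESeq2 version 1.42.0 (independent filtering at 0.1), limma-voom (limma version 3.58.1), the newer quasi-likelihood method, no robust estimation, 3 other scalings, 2 other filters, leaving out each library in turn, and a block for the replicate number. GC content offsets (loess, span 0.5) and DESeq2 without each library were chosen after seeing the data. The fits were tested on simulated data. CPM used TMM-scaled totals, and summed marker CPM used plain totals. Ratios of counts used a pseudocount of 0.5, and correlations used log2 CPM with a prior count of 2.

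The members, gene lists and tests were chosen with earlier results of these data known. Named genes were all 9 members, the label checks Foxp3 and Cbx5, and from each list up to 3 genes with the smallest unadjusted p, plus Kdm6a, Kdm6b, Cdkn2a, Tbx21, Gata3 and Eomes, of which those with unremarkable values are given as counts, and 1 gene under this rule is not reported here. For likeness, the 3 genes with the highest Pearson correlation were named. Positions, lengths and GC content came from GENCODE M39 (GRCm39), which matched 28854 identifiers, near-identical transcripts from BLAST version 2.17.0 (at least 95% identity over 300 bases), and promoters from RefSeq (GRCm38.p6), where all 9 genes matched by symbol.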

Additional observations from a re-analysis of the deposited data

How the results depend on the processing

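All 9 Polycomb genes kept their direction under the 24 alternatives run for each, and 210 of the 216 values also kept their side of the threshold. The other 6 were DESeq2 calls, of Eed with all libraries and of 5 genes without replicate 2 with HP1α KO Tconv. Counts of calls among the 9 were 0 in edgeR under every setting, 1 in DESeq2, and 0 to 5 in DESeq2 with a library left out. Over all genes the count was 0 in edgeR, 1 with upper quartile scaling, 38 with no filter beyond 1 count, 1 with the GC content offset and 0 to 2 with a library left out. In DESeq2 it was 526, and 242 with the GC content offset. It was 328, 279 and 181 without WT replicates 1, 2 and 3 and 681, 1413 and 332 without HP1α KO replicates 1, 2 and 3. In the wider list the count of 0 became 2 in DESeq2, 2 in DESeq2 with the GC content offset, 1 (Rybp, adjusted p 0.0344) with no filter, and 2 to 5 in DESeq2 with a library left out. The replicate block gave 1 gene called over all genes and 0 of the 9. In deviations from group means over 500 variable genes, same-numbered libraries of the groups correlated at 0.054, 0.275 and 0.258. Differently numbered ones correlated at -0.27 to 0.071. The main fit did not take the numbers as pairs, and whether they mark a shared origin was not tested. For 20 other named genes, which do not include Foxp3 and Ctla4, 480 values were read. Of these, 25 passed the threshold that the edgeR value did not, all in DESeq2 but for Rybp with no filter. They came from Aebp2, Rybp, Il10, Rbbp4, Fbrsl1 and Kdm6a. Another 10 reversed. Tbx21 (0.05) became -0.005878 with the GC content offset in edgeR and -0.005784 in DESeq2, and its range with a library left out was -0.02727 to 0.12 in edgeR, where it reversed without replicate 1 with WT Tconv (-0.02) and without replicate 2 with HP1α KO Tconv (-0.02727), and DESeq2 gave -0.03373 and -0.03247 there. Eomes (-0.06) ranged from -0.17 to 0.12 with a library left out in edgeR, reversing without replicate 3 with WT Tconv (0.12, and 0.11 in DESeq2) and without replicate 2 with HP1α KO Tconv (0.02, and 0.01236 in DESeq2). The cause of these changes was not tested. With 3 libraries a group, edgeR resolved none of the differences named here after adjustment over all genes, except Rybp with no filter.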
